A study of Mus musculus with 6 samples.

Results

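The Bcl2 family decides at the mitochondrion whether a stressed cell lives or dies, and 9 of its genes were followed in dorsal root ganglia of mouse embryos that lack Ybx1 in the neural crest lineage. They were found by gene symbol among the 17971 genes of the table, and all 9 were present. By role they were Bcl2, Bcl2l1 and Mcl1, which prevent death, Bax and Bak1, which carry it out, and Bid, Bcl2l11, Bbc3 and Pmaip1, which trigger it. Their gene identifiers in the table are, in that order, 12043, 12048, 17210, 12028, 12018, 12122, 12125, 170770 and 58801.

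mRNA libraries of the ganglia, the clusters of sensory neurons and glia beside the spinal cord, were sequenced from E13.5 embryos. The genotype was Wnt1-cre+/-;Ybx1fl/fl for the 3 cKO libraries and Ybx1fl/fl for the 3 littermate Ctrl libraries, all of them male. Both groups carried the floxed Ybx1 alleles, and Cre was present in the cKO embryos only, so effects of the transgene and of Ybx1 loss cannot be told apart. Wnt1-cre is known to act in the neural crest, which forms the neurons and glia of these ganglia, and blood, vessel and immune cells in the sample would keep Ybx1. Whether a library was made from 1 embryo or several was not given in the sources used here, and p-values measure the spread between these libraries.

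Libraries held 16464264 to 17446385 estimated counts, and 14338 genes had enough counts to be tested. Ybx1 stood at 137, 122 and 108 normalised CPM (counts scaled to library size) in cKO, against 927, 809 and 817 CPM in Ctrl, so each library went with its label. Markers of the labelled tissue were abundant. The summed level of 8 sensory neuron genes was 8604 to 9497 TPM (a level per transcript length) in cKO and 9059 to 9405 TPM in Ctrl. Of their log2 fold changes 4 were positive and 4 negative. A fit with the replicate number as a block called Isl1 and Stmn2 lower and Neurod1 higher, at an edgeR adjusted p under 0.05. It called 3.56% of all tested genes lower and 1.76% higher. For 7 glia and crest genes the sum was 2564 to 2587 TPM in cKO and 2407 to 2445 TPM in Ctrl, with 7 of 7 log2 fold changes positive. For 15 macrophage genes it was 237 to 330 TPM in cKO and 202 to 223 TPM in Ctrl, with 15 of 15 positive. One library stood apart: 10 erythroid genes summed to 59079 TPM in cKO replicate 1, and to 16199 to 27537 TPM in the other 5 libraries.

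In the intrinsic death pathway, Bax and Bak1 form pores in the outer mitochondrial membrane, cytochrome c leaves through them, and caspase-9 and then the executioner caspases are activated. Bcl2, Bcl2l1 (Bcl-xL) and Mcl1 bind and hold back Bax, Bak1 and their triggers. The triggers share with the rest of the family only a short segment called the BH3 domain, and they are switched on by lost trophic support, DNA damage or death receptors. In embryonic sensory ganglia this pathway removes neurons that fail to obtain enough neurotrophin, and in mice that loss requires Bax.

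The BH3 segment is the part that lets these proteins bind each other. Its coding bases are shown because guardians, effectors and triggers have this segment in common. Each run is 42 bases of coding sequence read 5′ to 3′ from GENCODE M21 transcripts (GRCm38). Capitals mark the 18 bases that encode leucine, any 3 residues, glycine or alanine, and aspartate.
Bcl2: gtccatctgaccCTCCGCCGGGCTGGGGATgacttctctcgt
Bcl2l1: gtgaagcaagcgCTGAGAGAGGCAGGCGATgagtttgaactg
Mcl1: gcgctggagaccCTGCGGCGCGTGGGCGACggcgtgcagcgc
Bax: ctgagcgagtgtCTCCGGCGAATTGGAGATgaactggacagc
Bak1: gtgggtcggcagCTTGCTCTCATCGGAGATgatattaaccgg
Bid: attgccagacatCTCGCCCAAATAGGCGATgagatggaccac
Bcl2l11: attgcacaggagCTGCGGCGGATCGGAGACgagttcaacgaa
Bbc3: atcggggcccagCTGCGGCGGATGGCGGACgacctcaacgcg
The runs were located by this residue pattern, so the leucine, the glycine or alanine, and the aspartate were set in advance. In codons, all 8 runs begin the capitals with CTN for leucine and end them with GAT or GAC for aspartate. Before the aspartate, 7 have a GGN codon for glycine, and Bbc3 has GCG for alanine. The most alike cores were those of Bcl2l11 and Bbc3, identical at 15 of 18 bases, and the least alike those of Bcl2l1 and Bak1, at 7 of 18. Each run lies within 1 exon. The guardians' runs are at chr1:106712572-106712613 (minus strand, Bcl2), chr2:152829694-152829735 (minus, Bcl2l1) and chr3:95659424-95659465 (plus, Mcl1). The effectors' are at chr7:45465994-45466035 (minus, Bax) and chr17:27022528-27022569 (minus, Bak1). The triggers' are at chr6:120897286-120897327 (minus, Bid), chr2:128147138-128147179 (plus, Bcl2l11) and chr7:16313761-16313802 (plus, Bbc3).

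The family was transcribed at very unequal levels, in the same order in all 6 libraries. Per transcript length, Bax was the most abundant member at 178 ± 5.34 TPM (SD, n = 6 libraries). Mcl1 followed at 82.1 ± 3.07 TPM, and Bcl2l1 at 72.1 ± 3.46 TPM. Bak1 stood at 42.4 ± 2.05 TPM, so Bax was the main effector transcript. Among the triggers Bbc3 was highest at 24.0 ± 1.17 TPM, then Bid at 17.5 ± 2.28 TPM and Bcl2l11 at 7.78 ± 0.81 TPM. Bcl2, the gene that names the family, was low at 5.48 ± 0.67 TPM, and Pmaip1 was near the limit of detection at 0.39 ± 0.19 TPM. The ranges of neighbours in this order did not overlap. The closest were Bcl2l11, at 6.52 TPM in its lowest library, and Bcl2, at 6.51 TPM in its highest.

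**Figure D1:**
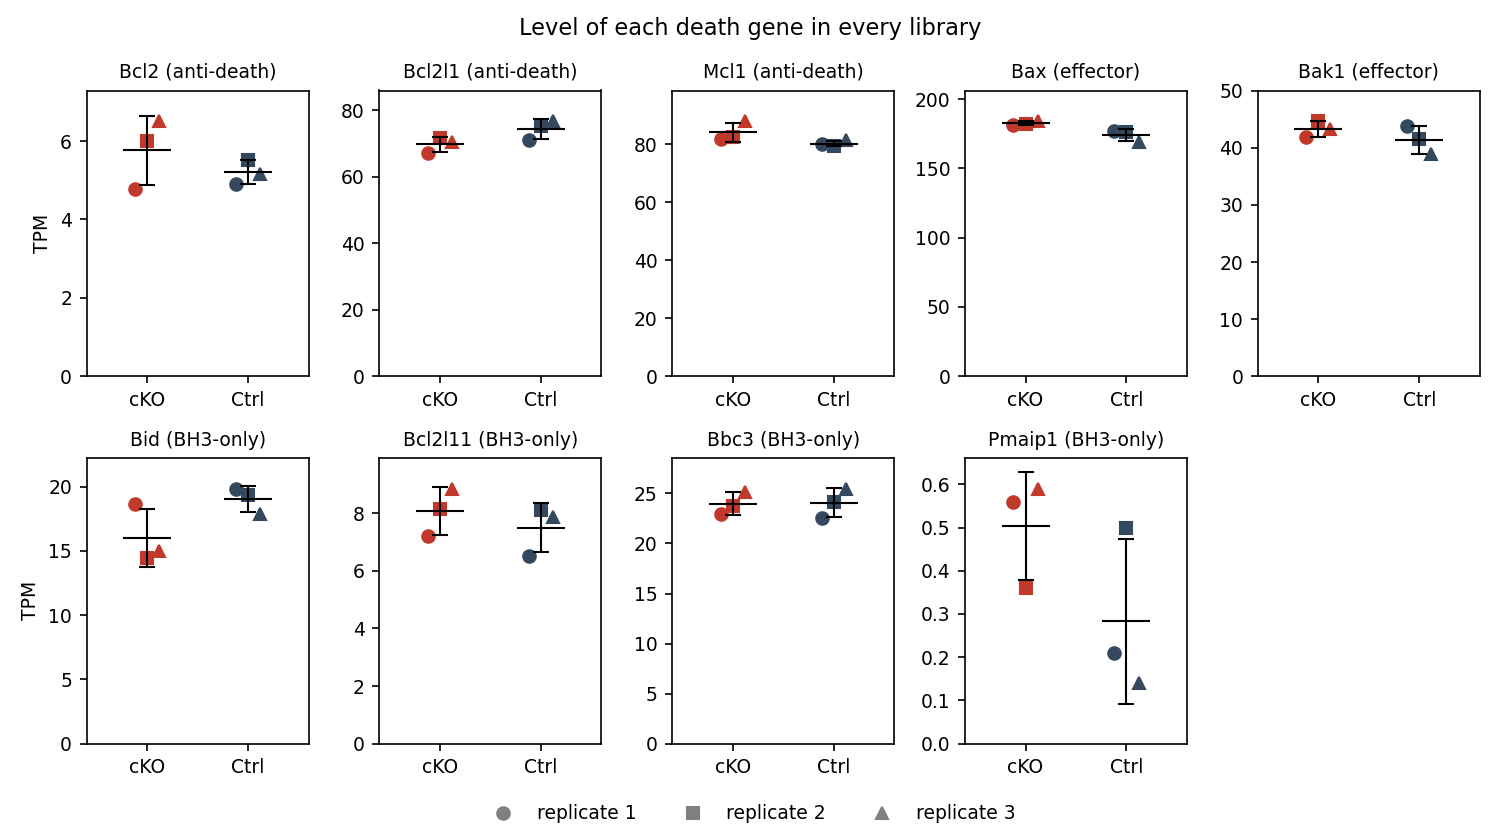
TPM of the 9 family genes (vertical axes from 0, 1 scale per gene) in the 3 cKO and 3 Ctrl libraries; marker shapes give the replicate number, and the bar and whiskers are the mean and SD. The groups overlap for 7 of the 9 genes, and 14.1% of all tested genes do not overlap in TPM; for Mcl1 and Bax the cKO values (81.7 to 87.9 and 181 to 184 TPM) lie above those of Ctrl (79.4 to 81.3 and 169 to 177 TPM).

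None of the 9 genes passed the test between cKO and Ctrl ganglia. All 9 were tested, with edgeR's quasi-likelihood test and adjustment over all 14338 genes, and 0 were called at an adjusted p under 0.05. Among all tested genes, 0.481% were called. With the replicate number as a block, the count was again 0 of 9, against 5.33% of all genes; at either share fewer than 1 of 9 would be called. At an unadjusted p under 0.05 the count was 0 of 9 without the block, where 10.7% of all genes passed, and 1 of 9, Bid, with it, where 18.7% did. DESeq2 called 0 of the 8 members to which it gave an adjusted p, which leaves out Pmaip1, and 1.36% of all genes with one. limma-voom called 0 of 9 and 0.37% of all genes. The median log2 fold change of the 9 was 0.05, with 6 positive and 3 negative, and that of all tested genes was 0.0044. The median absolute log2 fold change was 0.10 for the 9 and 0.085 for all tested genes. For the 7 members other than Bid and Pmaip1, the 95% intervals of the fold in the edgeR fit without the block lay between 0.846 and 1.25. Changes within a gene's own interval could not be told from none. The bounds are extremes over the 7 genes, not a limit beyond which a change would be called.

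**Figure D2:**
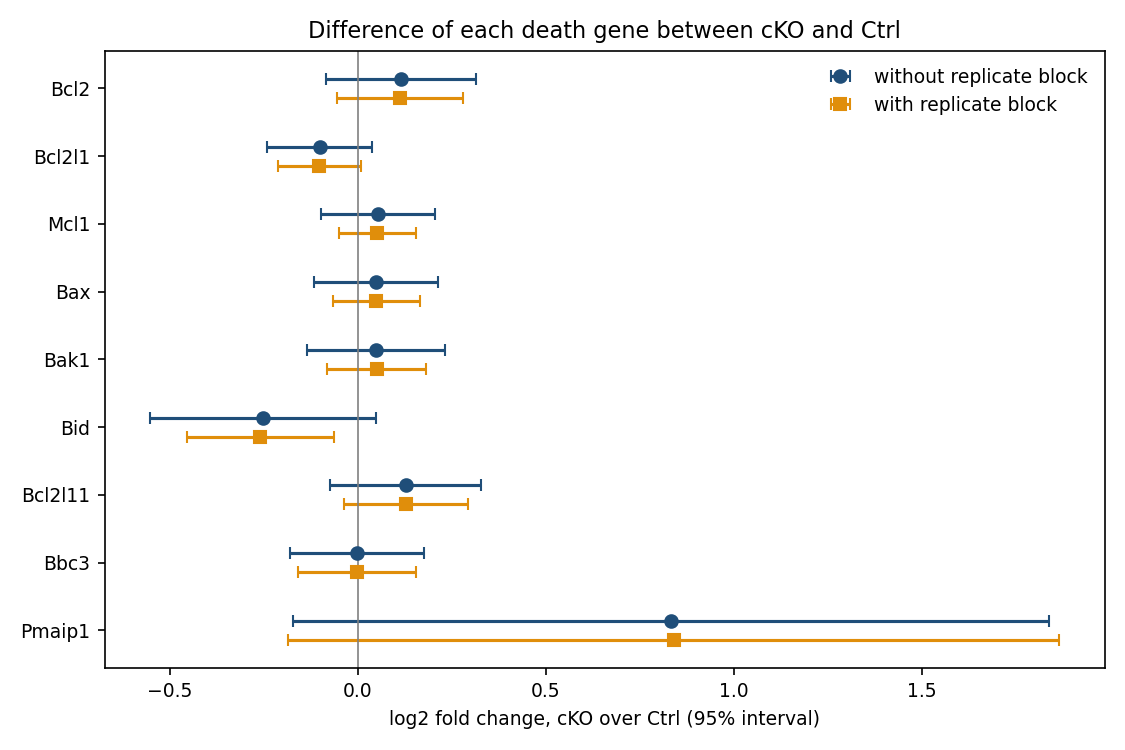
log2 fold change of cKO over Ctrl (horizontal axis) with its 95% interval for each of the 9 family genes, without the replicate block (circles) and with it (squares). All 9 circles have intervals that include 0; Pmaip1 has the widest, from -0.17 to 1.84.

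Of the genes that prevent death, Bcl2l1 was the one whose groups did not overlap in normalised CPM, and Mcl1 the one whose groups did not overlap in TPM. On the CPM scale 1 of the 9 members had groups that did not overlap, against 16.6% of all tested genes. Its product, Bcl-xL, keeps maturing neurons alive. Bcl2l1 had 91.5, 86.8 and 85.7 normalised CPM in cKO libraries 1, 2 and 3, against 94.4, 92.8 and 96.3 CPM in Ctrl libraries 1, 2 and 3. Every cKO library lay below every Ctrl library on this scale, which held for 8.77% of all tested genes in that direction. The log2 fold change was -0.10 (SE 0.06, 95% interval -0.24 to 0.04), and the edgeR adjusted p was 0.642, or 0.307 with the replicate block. In TPM the groups overlapped, with 67.3 to 71.5 TPM in cKO and 71.0 to 76.8 TPM in Ctrl.

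Mcl1, a guardian whose protein is made and destroyed quickly, had 159, 144 and 153 CPM in cKO and 154, 141 and 145 CPM in Ctrl. The groups overlapped on this scale, and cKO replicate 1 was the highest library; in TPM they did not, with 81.7 to 87.9 TPM in cKO and 79.4 to 81.3 TPM in Ctrl, as for 8.34% of all tested genes in that direction. Its log2 fold change was 0.05 (SE 0.07, 95% interval -0.10 to 0.20, edgeR adjusted p 0.861). Within each of the 3 same-numbered pairs cKO was the higher, by 0.05, 0.03 and 0.07 on the log2 scale; 19.6% of all tested genes were higher in cKO in all 3 pairs.

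Bcl2 had 19.8, 22.5 and 24.0 CPM in cKO and 20.3, 21.1 and 19.9 CPM in Ctrl. The cKO libraries spread across and above the Ctrl range, with replicate 1 the lowest of all 6. Its log2 fold change was 0.11 (SE 0.09, 95% interval -0.08 to 0.31, edgeR adjusted p 0.741). Together the 3 guardians summed to 154, 160 and 165 TPM in cKO and 156, 160 and 163 TPM in Ctrl, so the totals overlapped. Within that total Mcl1 made up 52.7% ± 0.96 in cKO and 50.2% ± 0.93 in Ctrl, and Bcl2l1 43.7% ± 0.99 in cKO and 46.5% ± 0.84 in Ctrl (SD, n = 3 each). The difference in these shares was not tested.

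Neither effector passed the test. Bax, whose protein moves to mitochondria to open them, had 63.8, 56.8 and 57.3 CPM in cKO and 61.2, 56.1 and 54.7 CPM in Ctrl. The groups overlapped, and the library numbered 1 was the highest of each group. This gave a log2 fold change of 0.05 (SE 0.08, 95% interval -0.12 to 0.21, edgeR adjusted p 0.883). In TPM, by contrast, the groups did not overlap, with 181 to 184 TPM in cKO and 169 to 177 TPM in Ctrl, which is again the case for 8.34% of all tested genes in that direction. The limma test on log2(TPM + 1) did not call Bax, and it called only 10 of the 14338 tested genes. Bak1, the effector that sits in the mitochondrial membrane, had 43.7, 41.5 and 40.2 CPM in cKO and 44.9, 39.3 and 37.1 CPM in Ctrl, which overlapped. Its log2 fold change was 0.05 (SE 0.08, 95% interval -0.14 to 0.23, edgeR adjusted p 0.90).

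The balance between effector and guardian transcripts can be read within each library, where scaling cancels. Bax over Bcl2l1 was 2.70, 2.54 and 2.61 as a ratio of TPM in cKO, and 2.49, 2.34 and 2.2 in Ctrl. The 3 cKO ratios lay above the 3 Ctrl ratios. The ratio was not tested, and the share of other gene pairs that separate in this way was not computed. Bax by itself was higher in every cKO library in TPM, and Bcl2l1 lower in normalised CPM. Bax over Bcl2 did not separate the groups, at 38.0, 30.3 and 28.3 in cKO and 36.0, 32.0 and 32.7 in Ctrl. Over all guardians the separation was lost: Bax plus Bak1 over the 3 guardians was 1.45, 1.41 and 1.38 in cKO and 1.42, 1.36 and 1.27 in Ctrl. The triggers over the 3 guardians also overlapped, at 0.321, 0.292 and 0.301 in cKO and 0.315, 0.325 and 0.315 in Ctrl.

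Among the triggers, Bid had the lowest log2 fold change of the 9. Its protein is cut by caspase-8 and carries the signal of death receptors to the mitochondrion. Bid had 18.2, 12.6 and 13.0 CPM in cKO libraries 1, 2 and 3, against 19.1, 17.1 and 16.1 CPM in Ctrl libraries 1, 2 and 3. The cKO libraries 2 and 3 lay below all Ctrl libraries, and cKO replicate 1 lay within the Ctrl range. The log2 fold change was -0.25 (SE 0.14, 95% interval -0.55 to 0.05), with an edgeR adjusted p of 0.574, or 0.126 with the replicate block. Within pairs 1, 2 and 3, cKO minus Ctrl was -0.06, -0.42 and -0.29 on the log2 scale, and 20.3% of all tested genes were lower in cKO in all 3 pairs. In models without both libraries numbered 1, added after the values were seen, Bid was called lower: the log2 fold change was -0.37 with an edgeR adjusted p of 0.0465, and 0.0188 with the block. In those models 5.09% and 8.72% of all genes were called. The library removed on the cKO side is the one with 59079 TPM of erythroid transcripts, and the part of blood cells in the Bid values was not tested. In bulk tissue, fewer cells that express a gene and less RNA per cell cannot be told apart.

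Bcl2l11 (Bim), the trigger induced in neurons deprived of trophic support, had 20.0, 20.6 and 22.0 CPM in cKO and 17.2, 20.2 and 19.8 CPM in Ctrl. The groups overlapped only between cKO replicate 1 and Ctrl replicate 2. The fitted log2 fold change was 0.13 (SE 0.09, 95% interval -0.07 to 0.33, edgeR adjusted p 0.698). Bbc3 (Puma), a target of p53, had 21.7, 20.7 and 21.5 CPM in cKO and 21.1, 20.2 and 22.7 CPM in Ctrl. Its cKO range lay inside its Ctrl range, and its log2 fold change of -0.0028 (SE 0.08, 95% interval -0.18 to 0.18, edgeR adjusted p 0.995) was the nearest to 0 of the 9.

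Pmaip1 (Noxa), another p53 target, which binds Mcl1, had few counts. It had 14, 8 and 13 counts in cKO and 5, 11 and 3 counts in Ctrl. Ctrl replicate 2 lay among the cKO libraries, and Pmaip1 passed the filter on low counts through cKO replicates 1 and 3 and Ctrl replicate 2. The log2 fold change was 0.83 (SE 0.46), and its 95% interval ran from -0.17 to 1.84, which includes both no change and a rise of 3.58-fold (edgeR adjusted p 0.580). The other 8 members had 216 to 2764 counts per library. The interval of Pmaip1 is too wide to show a difference of the size of the other members' folds.

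**Figure D3:**
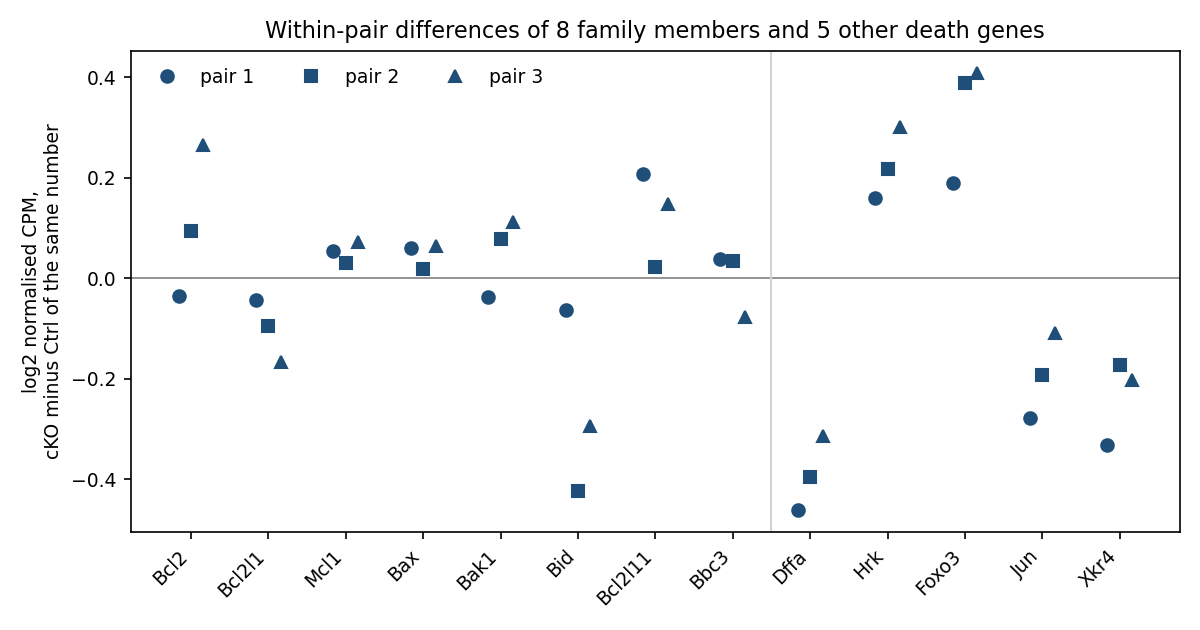
Difference of log2 normalised CPM, cKO minus Ctrl of the same replicate number (vertical axis), for 8 family genes left of the line and 5 other death genes right of it; marker shapes give the pair, and Pmaip1 is left out for its low counts. Dffa, Jun and Xkr4 are below 0 and Hrk and Foxo3 above 0 in all 3 pairs. These 5 are the genes that the model with the replicate block called. Of the family genes, Bcl2l1 and Bid are below 0 and Mcl1, Bax and Bcl2l11 above 0 in all 3 pairs. Bcl2, Bak1 and Bbc3 have pairs on both sides. Among all tested genes, 20.3% were lower and 19.6% higher in cKO in all 3 pairs.

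The other cell death genes came from 7 lists of 80 genes outside the family's 9, of which 68 were tested. Of these 68, 1 was lower and 0 higher in cKO without the block, where 0.37% and 0.112% of all genes were. With the block 3 were lower and 2 higher, where 3.56% and 1.76% of all genes were. The median log2 fold change over the 68 was 0.015.

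The gene called in both models was Dffa, which encodes the inhibitor of the caspase-activated DNase and is cut by caspases when a cell dies. Dffa had 41.8, 44.6 and 44.7 CPM in cKO and 57.8, 58.9 and 55.6 CPM in Ctrl. Its groups were well apart, and every pair was lower in cKO. Dffa fell by 23.9% (log2 fold change -0.39, SE 0.07); the edgeR adjusted p was 0.0326, or 0.000958 with the block. Its partner Dffb, the DNase itself, had a log2 fold change of 0.07 (SE 0.14). Removing cKO replicate 1 left the call of Dffa in place, while removing any of the other 5 libraries ended it, with edgeR adjusted p values of 0.0526 to 0.182 and log2 fold changes of -0.42 to -0.38. Scaling by library totals also ended it (log2 fold change -0.37, edgeR adjusted p 0.0526). With the block, Dffa was called without both libraries numbered 1, 2 or 3, at edgeR adjusted p values of 4.71e-05, 0.0101 and 9.16e-05. In the same libraries the summed TPM of the 15 macrophage and of the 7 glia genes lay above Ctrl in every cKO library. That of the 8 sensory neuron genes overlapped, with 4 log2 fold changes positive and 4 negative. The part of cell makeup in the Dffa values was not tested. In the list of execution genes, the blocked model called Xkr4, a relative of the scramblase that exposes phosphatidylserine on dying cells. It had 60.7, 78.5 and 70.8 CPM in cKO and 76.5, 88.5 and 81.6 CPM in Ctrl, which overlapped across pairs and not within them (blocked log2 fold change -0.24 at an edgeR adjusted p of 0.0192). The execution list as a whole had 5 positive and 5 negative log2 fold changes, with a median of -0.04.

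Of 10 further Bcl2 family genes tested, the blocked model called 1. This was Hrk, a trigger gene known for its induction in sympathetic neurons deprived of nerve growth factor. It had 56.8, 65.9 and 70.4 CPM in cKO and 50.7, 56.6 and 57.0 CPM in Ctrl. The groups overlapped between cKO replicate 1 and Ctrl replicate 3. All 3 pairs were higher in cKO, by 0.16, 0.22 and 0.30 on the log2 scale. The log2 fold change was 0.23 in each model, with an edgeR adjusted p of 0.351 without the block and 0.0263 with it. The list had 6 positive and 4 negative log2 fold changes, with a median of 0.02.

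The inputs to the trigger genes held 2 genes with blocked calls in opposite directions, among 12 tested. Foxo3, a transcription factor that can activate Bcl2l11, was higher in cKO at 58.9, 66.5 and 64.8 CPM, against 51.6, 50.7 and 48.7 CPM in Ctrl. Its groups did not overlap, as for 7.83% of all genes in that direction. Its log2 fold change was 0.33 with an SE of 0.07, and the edgeR adjusted p was 0.0715, or 0.00429 with the block. DESeq2 called it also without a block. Jun, the transcription factor activated by JNK kinases in stressed neurons, was lower at 86.9, 77.7 and 82.0 CPM in cKO, against 105, 88.9 and 88.4 CPM in Ctrl. Its blocked call was narrow (log2 fold change -0.20 at an edgeR adjusted p of 0.0448) and was lost with library totals. The blocked calls of Hrk, Foxo3, Jun and Xkr4 were all lost without both libraries numbered 2, where 1.81% of all genes were called. That of Hrk was also lost without those numbered 3, where 5.82% were, and that of Jun without those numbered 1.

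The caspase list and the 3 remaining lists had no called gene in either model. Of 7 caspases tested, 4 log2 fold changes were positive and 3 negative, and the median was 0.02. Casp9, the initiator caspase of the mitochondrial pathway, had 43.4, 47.8 and 52.7 CPM in cKO and 54.1, 55.4 and 53.6 CPM in Ctrl. Its groups did not overlap on this scale, as for 8.77% of all tested genes in that direction. The log2 fold change was -0.18 (SE 0.08), at an edgeR adjusted p of 0.449, or 0.119 with the block. With the block and without both libraries numbered 3 it was called lower (log2 fold change -0.26, edgeR adjusted p 0.0195), where 5.82% of all genes were called. Without both libraries numbered 1, Xiap, of the inhibitor list, was called lower with or without the block. With the block, Vdac1 was called lower (edgeR adjusted p 0.0308) and Diablo higher, both of the cytochrome c release list. In those models 5.09% of all genes were called without the block and 8.72% with it. Casp6, an executioner caspase, had 26.2, 22.5 and 20.8 CPM in cKO and 26.8, 20.1 and 21.6 CPM in Ctrl, which overlapped, with a log2 fold change of 0.02 (SE 0.12). The 10 genes of cytochrome c release and the apoptosome had a median log2 fold change of 0.04. The most abundant were the mitochondrial channel genes Vdac1 (284 ± 8.51 TPM in cKO and 309 ± 10.1 TPM in Ctrl, log2 fold change -0.13) and Vdac2 (273 ± 13.3 TPM in cKO and 267 ± 7.19 TPM in Ctrl, 0.02). The 9 caspase inhibitor genes had a median of -0.0047. Birc5, which also acts in mitosis, had 54.2 ± 3.13 TPM in cKO and 47.5 ± 3.93 TPM in Ctrl (log2 fold change 0.17), and the giant inhibitor gene Birc6 25.8 ± 4.29 TPM in cKO and 26.6 ± 3.23 TPM in Ctrl (-0.05). The 10 death receptor and adaptor genes had a median of 0.04. Maged1 and Bex3, whose products bind the p75 neurotrophin receptor, had log2 fold changes of -0.01 and 0.10.

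**Figure D4:**
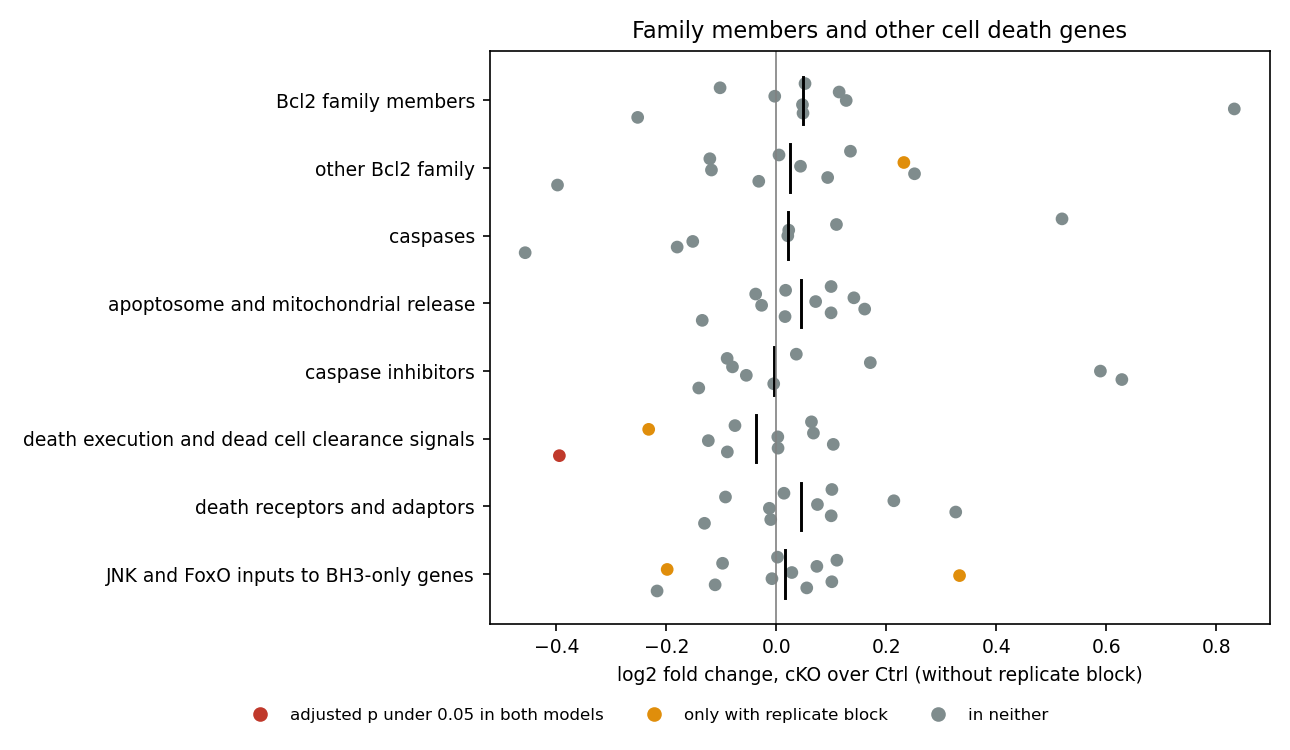
log2 fold change of cKO over Ctrl (horizontal axis) of each tested gene, by list, with the list median as a bar; colour gives the call at an adjusted p under 0.05. Dffa, at -0.39, is the 1 gene called in both models, and 4 further genes outside the family's 9 are called with the replicate block only.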

How the data were processed

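The submitters' processing notes name RSEM 1.3.1, HISAT2 2.2.1 and Bowtie2 2.4.5 and the build GRCm38 (mm10), with no role for each. For 6 libraries the authors deposited estimated counts that were not normalized, TPM and FPKM, with group means; FPKM was not used here. Counts were rounded, filtered with filterByExpr (3633 genes removed), scaled by TMM and fitted in edgeR 4.0.16 (R 4.3.3). The test was its quasi-likelihood test, robust and two-sided, adjusted over all genes by Benjamini-Hochberg at a threshold of 0.05. SEs come from the fold change and its F statistic. Per-library CPM use TMM sizes, and pair differences use log2(CPM + 0.5). The code of the edgeR fits with and without the block was run on simulated data, with folds larger than those of most members. That run does not measure the power to call the members.

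Titles number replicates 1 to 3 in both groups. Libraries with the same number deviated together from the group means (correlations of 0.383, 0.22 and 0.189 over 14338 genes), so the numbers were taken to pair the samples; the block was an alternative. Others were DESeq2 1.42.0, limma 3.58.1 (voom, or log2(TPM + 1) and log2(TPM + 0.1)), filters, scalings and left-out libraries. The members, lists and tests were chosen with earlier results of these data known. Named genes were all members, up to 4 called genes per list, or else its 2 most abundant. Outside this rule, Dffb was named as the partner of Dffa, and Xiap and Diablo for their calls without both libraries numbered 1. Of 17971 genes, 17838 matched the RefSeq table of GRCm38.p6. Pmaip1 sequence is not shown here, and 1 listed gene is not reported here. Figures used matplotlib 3.10.9.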

Additional observations from a re-analysis of the deposited data

How the results depend on the processing

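The number of family genes called was 1 (Bid) without both libraries numbered 1, with or without the replicate block, and 0 under every other alternative run; of the 9, Pmaip1 had no adjusted p with DESeq2 or a 1 CPM filter, which leaves 8 there. Over all genes 69 were called, against 44 with library totals, 183 with DESeq2, 10 and 12 with limma on log2(TPM + 1) and log2(TPM + 0.1), 128 with no filter, 764 with the replicate block and 799 with the block and library totals. The count was 731 without both libraries numbered 1, and with the block 1252, 260 and 836 without both libraries numbered 1, 2 or 3; leaving out single libraries gave 18 to 104. Of the other cell death genes 1 was called (Dffa), against 0 with library totals and with either TPM test, 2 with DESeq2, 5 with the replicate block, 4 with the block and library totals, 4 without both libraries numbered 1, and with the block 8 and 7 without both numbered 1 or 3; single libraries left out gave 0 to 2.

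Signs turned only for log2 fold changes near 0. Leaving out single libraries gave -0.0078 to 0.10 for Bax, -0.010 to 0.13 for Bak1, -0.041 to 0.042 for Bbc3, -0.086 to 0.077 for Vdac2, -0.074 to 0.16 for Casp6, -0.12 to 0.032 for Birc6 and -0.054 to 0.018 for Maged1. Bbc3 also turned with library totals (0.024), a 1 CPM filter (4.7e-05), the block and library totals (0.024) and the block without both libraries numbered 3 (0.037). Casp6 turned with the block without both libraries numbered 2 (-0.043). Vdac2 turned without both libraries numbered 1 (-0.025, and -0.025 with the block). Maged1 turned with library totals (0.014), both TPM tests (0.00054 each), the block and library totals (0.014) and the block without both libraries numbered 3 (0.025). The cause of these shifts was not tested. With 3 to 14 counts per library, Pmaip1 ranged from 0.24 to 1.69 over 19 alternatives.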

Other observations

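Of the 10 further Bcl2 family genes tested, 1 lay higher and 2 lower in cKO with groups that did not overlap in CPM, and none of these 3 was called in either model. Bok, a relative of the effectors, had a log2 fold change of -0.40 (SE 0.13), at an edgeR adjusted p of 0.261, or 0.0757 with the replicate block. Bcl2l12, a further family gene, had one of 0.25 (SE 0.12), at an edgeR adjusted p of 0.521. Bcl2l13, another family gene, had one of -0.12 (SE 0.06), at an edgeR adjusted p of 0.569, or 0.223 with the block. They were chosen after their values were seen, and 16.6% of all tested genes had groups that did not overlap.

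Across the 6 libraries, the gene most like each member in log2 CPM was sought among 11603 other named genes with at least 5 CPM (11604 for Pmaip1). It was Zfp821 for Bcl2 (Pearson r 0.994), Vamp7 for Bcl2l1 (0.994), Asb3 for Mcl1 (0.999), Mrpl28 for Bax (0.997) and Bmyc for Bak1 (0.994). For the triggers it was Rita1 for Bid (0.983), Alkbh3 for Bcl2l11 (0.994), Snrnp35 for Bbc3 (0.978) and Nagk for Pmaip1 (0.978). Between 28 and 477 genes had an r over 0.9 with each member, over libraries that share scaling and genotype. Each r is the highest among all these candidates over only 6 libraries, and that of Pmaip1 rests on 3 to 14 counts per library.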
